A study of Mus musculus with 12 samples.

Results

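The genes described here are 43 genes of DNA replication and cell division, out of 34989 genes measured in RNA of tumor-associated macrophages from mouse melanomas. The rule names them and uses no measured value, but they were chosen with earlier results of these data known. The list holds 16 genes whose products act before or during S phase, when DNA is copied, and 27 whose products act in mitosis or are widely used as marks of dividing cells. Their counts were summed over the transcripts of each gene and compared over 4 groups of 3 libraries, beside Tyr, Dct and Pmel, which mark melanocytes and melanoma cells.

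The combination group received both agents, the CD40 agonist group the antibody FGK4.5, the CSF1Ri group the inhibitor PLX6134, and the Control group neither. FGK4.5 is an antibody that activates the receptor CD40 and was injected into the peritoneum at 10 mg/kg every 3 days, for 10 doses in all. PLX6134, taken to be the CSF1 receptor inhibitor of the group name, was fed in chow at 600 mg/kg. Mice without the inhibitor ate normal chow, and mice without the antibody received phosphate-buffered saline. All 4 groups carried melanomas induced with a Cre recombinase that the melanocyte promoter of Tyr drives. Treatment began 30 days after induction with total tumor volume under 100 mm3, and went on for 30 days or until tumors reached 2 cm3. Each library pooled at least 3 tumors, and whether pools shared mice is not stated, so p-values measure the spread between these pools. How the macrophages were separated from other tumor cells is not described in the text used here.

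A cell that divides first licenses its replication origins with the MCM helicase, then copies its DNA in S phase, and then separates the copies in mitosis. E2F transcription factors switch on the S phase genes, while a complex built around B-MYB and FOXM1 switches on the mitotic genes later in the cycle. Macrophages in tissue can divide, and CSF1 is a growth factor that drives their proliferation, while tumor cells, lymphocytes and early myeloid cells also carry these transcripts when they divide. In bulk RNA a smaller number of dividing cells and less RNA per dividing cell cannot be told apart.

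The promoters of these genes carry letters that differ between the S phase and mitotic classes, and they are shown for the genes on which the results turn. Of the 43 genes, 35 had an entry in the RefSeq promoter table (build GRCm38.p6), and Mcm4, Ccne2, Ccna2, Foxm1, Aurkb, Kif20a, Tpx2 and Stmn1 had none. The 200 bases before the start of each gene were searched on both strands for 3 motifs. The cell cycle homology region (TTTGAA or TTCGAA) is a known element of late cell cycle promoters, the E2F motif was written as TTT and CGC parted by a pair of letters that are each C or G, and CCAAT is the letters read by the factor NF-Y. Matches of different motifs did not overlap in the windows shown, while matches of the E2F motif on opposite strands overlapped in Mcm5 and Mcm6. Capitals mark the matches.
The first 5 sequences belong to the genes that rose in the combination relative to CSF1Ri and that had an entry, read 5′ to 3′ on the gene's own strand. Their windows lie at chr2:118598011-118598210 on the plus strand for Bub1b, chr11:99024190-99024389 on the minus strand for Top2a, chr9:70421555-70421754 on the minus strand for Ccnb2, chr7:135716380-135716579 on the minus strand for Mki67 and chr11:117849037-117849236 on the plus strand for Birc5.
Bub1b: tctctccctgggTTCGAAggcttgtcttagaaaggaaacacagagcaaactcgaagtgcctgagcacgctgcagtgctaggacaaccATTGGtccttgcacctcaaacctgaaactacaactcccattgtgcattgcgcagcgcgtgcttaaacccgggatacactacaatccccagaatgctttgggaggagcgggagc
Top2a: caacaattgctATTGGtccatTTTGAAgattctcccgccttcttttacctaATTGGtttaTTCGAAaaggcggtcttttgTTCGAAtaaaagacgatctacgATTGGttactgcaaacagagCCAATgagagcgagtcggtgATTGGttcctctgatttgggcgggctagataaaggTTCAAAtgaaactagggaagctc
Ccnb2: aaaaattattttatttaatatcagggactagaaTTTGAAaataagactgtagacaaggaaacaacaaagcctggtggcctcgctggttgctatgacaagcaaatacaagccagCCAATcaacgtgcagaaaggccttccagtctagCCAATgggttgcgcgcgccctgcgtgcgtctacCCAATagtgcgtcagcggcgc
Mki67: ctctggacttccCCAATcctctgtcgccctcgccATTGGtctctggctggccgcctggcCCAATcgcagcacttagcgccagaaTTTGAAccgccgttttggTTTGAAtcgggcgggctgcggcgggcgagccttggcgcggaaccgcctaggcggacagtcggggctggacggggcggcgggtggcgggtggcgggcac
Birc5: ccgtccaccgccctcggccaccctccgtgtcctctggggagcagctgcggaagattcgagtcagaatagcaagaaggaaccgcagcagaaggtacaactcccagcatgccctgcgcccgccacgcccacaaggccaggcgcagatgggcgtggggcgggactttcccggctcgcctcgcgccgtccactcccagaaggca
For contrast, the next sequences belong to Mcm5 and Mcm6, the S phase genes with the smallest p in the same comparison among those with an entry. Their windows lie at chr8:75109309-75109508 on the plus strand and chr1:128359706-128359905 on the minus strand.
Mcm5: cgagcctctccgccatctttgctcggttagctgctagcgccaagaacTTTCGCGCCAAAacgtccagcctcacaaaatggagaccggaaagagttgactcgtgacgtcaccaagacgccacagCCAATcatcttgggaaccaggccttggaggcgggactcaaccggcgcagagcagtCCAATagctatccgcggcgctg
Mcm6: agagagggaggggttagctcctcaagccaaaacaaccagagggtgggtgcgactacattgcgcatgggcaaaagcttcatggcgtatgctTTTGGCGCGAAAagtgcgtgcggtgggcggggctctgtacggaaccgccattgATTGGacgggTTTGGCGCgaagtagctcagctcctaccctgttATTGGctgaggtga
Bub1b, Top2a, Ccnb2 and Mki67 held the cell cycle homology region and CCAAT and no E2F match, Birc5 held none of the 3 motifs, and Mcm5 and Mcm6 held E2F and CCAAT matches. Over all members with an entry, the cell cycle homology region stood in 9 of 21 mitosis genes (42.9%), in 2 of 14 S phase genes (14.3%) and in 13.4% of the 32851 promoters of the table. The E2F motif stood in 1 of 21 mitosis genes (4.76%), in 5 of 14 S phase genes (35.7%) and in 1.58% of all promoters. CCAAT stood in 19 of 21 mitosis genes (90.5%), in 10 of 14 S phase genes (71.4%) and in 29.3% of all promoters. These counts describe letters and no binding was measured.

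Libraries held 26316328 to 39818657 estimated counts, and all 43 genes passed the filter on low counts that 16027 genes passed. All 13 macrophage and monocyte markers of the list were detected in every group. The list, of which Lyz2 made up the most, summed to 16880 to 41494 counts scaled to library size (CPM) in the combination, 17995 to 22656 with the CD40 agonist, 24846 to 31231 with CSF1Ri and 19220 to 23032 in Control. Its mean log2 CPM was 8.02 to 8.26 in the combination, 8.04 to 8.36 with the CD40 agonist, 7.33 to 7.70 with CSF1Ri and 7.81 to 8.0 in Control. C1qb, a complement gene of mature macrophages, had 198, 8.64 and 93.4 CPM in the combination libraries, 109, 169.8 and 299 in the CD40 agonist libraries, 4.82, 3.37 and 14.5 in the CSF1Ri libraries and 61.9, 51.9 and 69.7 in the Control libraries. Its CSF1Ri libraries lay below its Control libraries, as in 8.55% of all genes tested. Over the whole list the direction depended on the measure. The mean log2 CPM of every CSF1Ri library lay below that of every Control library, while the summed CPM lay above. With CSF1Ri against Control, 8 of the 13 markers had a positive log2 fold change (median 0.19), and edgeR called none. Combination replicate 2 and CSF1Ri replicate 3 stood apart from their groups on the second principal component (-105.8 beside -32.5 and -55.6, and 32.7 beside -22.2 and -24), and results without both are given with the comparisons. CD40 agonist replicate 1 stood apart on the third component (-116.4 beside -12.8 and 3.7). Across genes the spread between replicates corresponded to a coefficient of variation of 61%.

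Levels differed widely between the genes. On the deposited TPM scale, which corrects for transcript length, Hmgb2, a DNA-bending chromatin protein, averaged 106 TPM over the 12 libraries, the replication clamp gene Pcna 94.1 TPM and Stmn1, which destabilises microtubules, 51.0 TPM. The lowest averages were 0.45 TPM for Kif11 and 0.48 TPM for Foxm1. The median over genes was 5.22 TPM for the mitosis genes and 12.3 TPM for the S phase genes, and 13 of 27 mitosis genes and 4 of 16 S phase genes averaged under 5 TPM. Of the 43 genes, 7 were at 0 in at least 1 library. The libraries were unstranded, and the spans of Mcm7, Ccne2, Ccna2, Kif20a, Nusap1, Cdc20 and Ube2c overlap those of Cops6 and Ap4m1, Ints8, Exosc9, Cdc23, Oip5, Elovl1 and Tnnc2 on the other strand, so reads from any shared stretch carry no strand to part them.

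The combination had the highest mean CPM of the 4 groups for 38 of 43 genes, against 29% of all genes tested. The exceptions were Tk1, Ccne1, Cenpa and Kif11, highest with the CD40 agonist, and Kif23, highest with CSF1Ri. CSF1Ri had the lowest mean for 26 genes (29.3% of all genes tested), of which 18 were mitosis genes, and Control for 17 (21.7%). The full order of combination, CD40 agonist, Control and CSF1Ri from high to low held for 21 of 43 genes, against 8.28% of all genes tested.

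**Figure D1:**
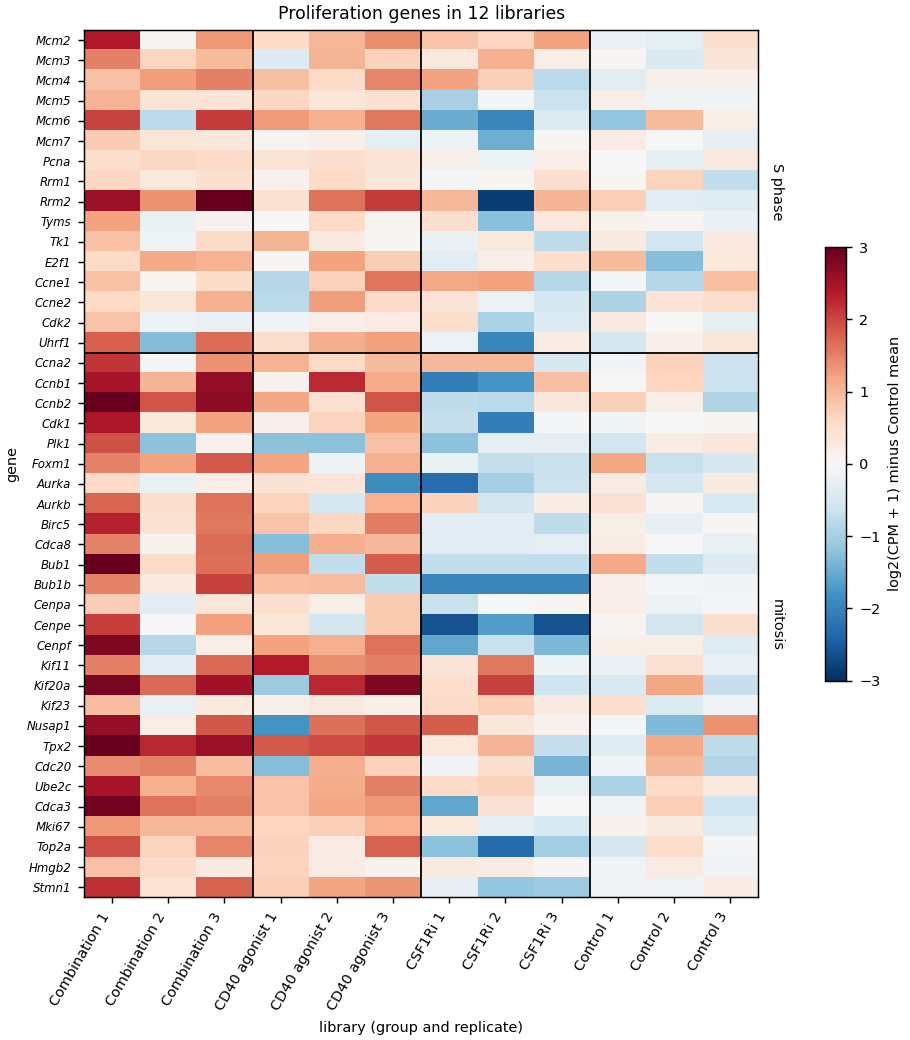
Each row is 1 of the 43 genes and each column 1 of the 12 libraries. Colour gives log2(CPM + 1) minus the mean of the 3 Control libraries, from -3 (blue) to 3 (red), with stronger values drawn at the end of the scale, and a line parts the 16 S phase genes above from the 27 mitosis genes below. Combination replicates 1 and 3 are red in most rows, while CSF1Ri libraries hold the blue blocks of Bub1b, Cenpe and Top2a.

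In each role, the genes with the highest mean CPM and every gene called by edgeR are given library by library, in the order of replicates 1 to 3. Of the 7 genes that license origins and work at the fork, edgeR called none in any comparison, while DESeq2 called Mcm5, Mcm6 and Pcna in the combination against CSF1Ri and Mcm2 and Pcna against Control. Pcna, the sliding clamp of the DNA polymerases, had 111, 119 and 115 CPM in the combination libraries, 103, 108 and 102 in the CD40 agonist libraries, 86.5, 69 and 86.5 in the CSF1Ri libraries and 76.1, 62.1 and 94.1 in the Control libraries. Each combination library lay above each CD40 agonist library, and each CD40 agonist library above each CSF1Ri and Control library. The log2 fold change of Pcna was 0.51 ± 0.16 (SE) in the combination against CSF1Ri and 0.57 ± 0.16 against Control (edgeR, adjusted p = 0.123 and 0.136). Mcm4, a subunit of the MCM helicase, had 57.6, 75.4 and 90.2 CPM in the combination libraries, 58.1, 46.8 and 87.6 in the CD40 agonist libraries, 72, 51.1 and 17.1 in the CSF1Ri libraries and 24.7, 34.6 and 34.3 in the Control libraries. Combination and CD40 agonist libraries all lay above Control, and the CSF1Ri libraries ran from 17.1, below every other library, to 72, above every Control library. All 7 genes of this role had a positive fold change in the combination against CSF1Ri (median 0.68) and against Control (median 1.08), and in 3 and 5 of them the groups did not overlap (10.8% of all genes tested in either comparison).

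Mcm5 and Mcm6, whose promoters are shown above, were picked out after their values were seen. Mcm5 had 31.1, 19.9 and 19.8 CPM in the combination libraries, 23, 19 and 20.4 in the CD40 agonist libraries, 6.99, 14.1 and 8.95 in the CSF1Ri libraries and 17, 13.5 and 13.7 in the Control libraries. Every combination and CD40 agonist library exceeded every Control library, and CSF1Ri replicates 1 and 3 were the lowest of the 12. Mcm6 had 44.9, 5.63 and 47.6 CPM in the combination libraries, 26.4, 22.6 and 32.8 in the CD40 agonist libraries, 3.06, 1.87 and 7.49 in the CSF1Ri libraries and 4.10, 20.8 and 12.1 in the Control libraries. Combination replicate 2 stood with the CSF1Ri libraries for Mcm6, far from replicates 1 and 3. Their log2 fold changes in the combination against CSF1Ri were 1.24 ± 0.30 and 2.98 ± 0.82 (edgeR, adjusted p = 0.0649 and 0.092), which did not pass the threshold of 0.05.

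Genes of nucleotide supply had small fold changes, with a median of 0.59 over 4 genes in the combination against CSF1Ri. Rrm1, the large subunit of ribonucleotide reductase, had 63, 50.2 and 57.2 CPM in the combination libraries, 44.1, 61.9 and 52.1 in the CD40 agonist libraries, 39.5, 42.2 and 58 in the CSF1Ri libraries and 42.2, 64.9 and 24 in the Control libraries. All groups overlapped, and the highest library was a Control. Tk1, thymidine kinase of dividing cells, had 33.3, 16 and 26.7 CPM in the combination libraries, 36.9, 21.5 and 18.3 in the CD40 agonist libraries, 15.2, 22.4 and 10.0 in the CSF1Ri libraries and 21.7, 11.7 and 21.8 in the Control libraries. Again all groups overlapped, and the span of Tk1 overlaps that of Afmid on the other strand. The log2 fold changes in the combination against CSF1Ri were 0.29 ± 0.31 for Rrm1 and 0.68 ± 0.41 for Tk1 (edgeR, adjusted p = 0.674 and 0.414). Rrm2, the small subunit that cells make in S phase, ranged most, with 41.2, 17.4 and 57 CPM in the combination libraries, 8.76, 21.3 and 29.8 in the CD40 agonist libraries, 13.2, 0 and 13.5 in the CSF1Ri libraries and 10.8, 4.62 and 4.52 in the Control libraries. Its combination libraries all lay above the CSF1Ri and Control libraries (2.11 ± 1.15 and 2.53 ± 1.17 on the log2 scale, edgeR, adjusted p = 0.364 and 0.346), and it was singled out after its values were seen.

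Among genes of S phase entry, Cdk2, the partner kinase of cyclin E, had 49.9, 24.6 and 23.1 CPM in the combination libraries, 25.2, 31.5 and 32.6 in the CD40 agonist libraries, 39.7, 13.6 and 20.1 in the CSF1Ri libraries and 33.8, 27.3 and 22 in the Control libraries. The groups overlapped, and combination replicate 1 was the highest of the 12. The span of Cdk2 overlaps that of Pmel on the other strand, and combination replicate 1 was also the library with the most Pmel. Uhrf1, which carries DNA methylation onto the new strand, had 31.4, 2.81 and 28.8 CPM in the combination libraries, 12.5, 19 and 21 in the CD40 agonist libraries, 7.23, 1.39 and 9.79 in the CSF1Ri libraries and 5.59, 9.30 and 10.9 in the Control libraries. All 3 CD40 agonist libraries lay above the CSF1Ri and Control libraries, while combination replicate 2 lay below Control and replicates 1 and 3 above every other library. Log2 fold changes in the combination against CSF1Ri were 0.41 ± 0.40 for Cdk2 and 1.77 ± 0.81 for Uhrf1 (edgeR, adjusted p = 0.638 and 0.277). E2f1, Ccne1 and Ccne2 had log2 fold changes of 0.89 ± 0.62, -0.33 ± 1.61 and 0.88 ± 0.63 in that comparison.

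The genes of mitotic entry had larger fold changes. Ccnb2, a cyclin of the mitotic kinase (ENSMUSG00000032218, chr9:70407692-70421547), had 46.2, 19.5 and 34.8 CPM in the combination libraries, 11.6, 6.60 and 19.5 in the CD40 agonist libraries, 2.27, 2.17 and 6.06 in the CSF1Ri libraries and 8.17, 5.35 and 1.98 in the Control libraries. Every combination library lay above every CSF1Ri and Control library, and its lowest library was level with the highest CD40 agonist library. Ccnb2 rose in the combination relative to CSF1Ri, with a log2 fold change of 3.25 ± 0.65 (edgeR, adjusted p = 0.0361), and was 2.70 ± 0.64 against Control (adjusted p = 0.0822). Counts of Ccnb2 can include reads of the pseudogene Ccnb2-ps, which reached 2.91 CPM. Ccnb1, the other B-type cyclin, had 31.1, 10.8 and 35.3 CPM in the combination libraries, 5.24, 26.4 and 11.5 in the CD40 agonist libraries, 0.373, 0.712 and 9.85 in the CSF1Ri libraries and 4.86, 8.07 and 2.71 in the Control libraries. Combination libraries again lay above all CSF1Ri and Control libraries, with CSF1Ri replicate 3 far above the other CSF1Ri libraries. The log2 fold change of Ccnb1 against CSF1Ri was 2.81 ± 1.10 and did not pass (edgeR, adjusted p = 0.208). All 7 genes of this role were higher in the combination than with CSF1Ri on the fitted scale, with a median of 2.81, and the kinase gene Cdk1 had 2.84 ± 0.97.

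The chromosomal passenger complex and spindle checkpoint list held Bub1 and Bub1b, the 2 genes at 0 in every CSF1Ri library. Bub1b, which encodes the checkpoint kinase BubR1 (ENSMUSG00000040084, chr2:118598211-118641591), had 10.1, 3.86 and 15.5 CPM in the combination libraries, 6.35, 6.52 and 1.37 in the CD40 agonist libraries, 0, 0 and 0 in the CSF1Ri libraries and 3.40, 2.78 and 2.71 in the Control libraries. No read was assigned to it in any CSF1Ri library, whereas all 9 other libraries held it. With the CSF1Ri group set to a floor of 3 counts over its 3 libraries (0.0332 CPM), Bub1b was at least 296-fold higher in the combination than with CSF1Ri (edgeR, adjusted p = 0.00911). It was at least 89.4-fold lower with CSF1Ri than in Control, where the test did not pass (edgeR, adjusted p = 0.0813). Bub1, the related checkpoint kinase, had 24, 1.49 and 4.24 CPM in the combination libraries, 3, 0 and 4.85 in the CD40 agonist libraries, 0, 0 and 0 in the CSF1Ri libraries and 2.67, 0 and 0.268 in the Control libraries. Combination replicate 1 carried most of it, and the combination stood at least 299-fold above CSF1Ri with that library and at least 86.4-fold without it (edgeR with all libraries, adjusted p = 0.113). Such floors cover counting error only, because reads were counted without molecular identifiers.

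Birc5, the survivin gene of the passenger complex (ENSMUSG00000017716, chr11:117849251-117855743), had 30.8, 7.83 and 18.3 CPM in the combination libraries, 10.6, 8.88 and 17.6 in the CD40 agonist libraries, 4.18, 4.08 and 2.80 in the CSF1Ri libraries and 6.26, 4.40 and 5.73 in the Control libraries. Combination and CD40 agonist libraries all lay above CSF1Ri and Control libraries, and combination replicate 2 was the lowest of those 6. Birc5 rose in the combination relative to CSF1Ri by 2.36 ± 0.49 on the log2 scale (edgeR, adjusted p = 0.038). Cdca8, which encodes borealin of the same complex, had 22.4, 8 and 25.9 CPM in the combination libraries, 2.47, 16.7 and 15.3 in the CD40 agonist libraries, 5.67, 5.66 and 5.86 in the CSF1Ri libraries and 8.69, 7.37 and 6.19 in the Control libraries. The 3 CSF1Ri libraries were nearly equal and lay below each combination library, and CD40 agonist replicate 1 was the lowest of the 12. Cdca8 had a log2 fold change of 1.71 ± 0.62 against CSF1Ri (edgeR, adjusted p = 0.181).

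The centromere genes Cenpa and Cenpe differed in how the groups lay. Cenpa, the histone variant that marks centromeres, had 34.8, 16.2 and 26.7 CPM in the combination libraries, 29.2, 23.5 and 36 in the CD40 agonist libraries, 12.7, 20.3 and 21.6 in the CSF1Ri libraries and 23.8, 18.5 and 19.9 in the Control libraries. The combination libraries overlapped those of every other group, and CD40 agonist libraries lay above those of CSF1Ri but not of Control, with the CD40 agonist mean the highest at 29.6 ± 6.30 CPM (SD, n = 3). Cenpe, a kinetochore motor, had 25, 5.25 and 13.5 CPM in the combination libraries, 6.91, 3.18 and 9.62 in the CD40 agonist libraries, 0, 0.937 and 0 in the CSF1Ri libraries and 5.47, 3.23 and 7.53 in the Control libraries. CSF1Ri libraries lay below every other library, at 0 in 2 of 3. Log2 fold changes in the combination against CSF1Ri were 0.51 ± 0.31 for Cenpa and 5.57 ± 1.42 for Cenpe (edgeR, adjusted p = 0.422 and 0.0722).

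Spindle genes were the mitotic role with the least difference between the combination and CSF1Ri (median 0.98). Against Control, however, their median log2 fold change was the highest of all roles, at 2.61 in the combination and 2.12 with the CD40 agonist. edgeR called no spindle gene in these comparisons. Kif23, a kinesin of the central spindle, had 49.6, 22.1 and 32 CPM in the combination libraries, 28.8, 31.1 and 29.4 in the CD40 agonist libraries, 38.8, 43 and 31 in the CSF1Ri libraries and 37.1, 19.2 and 23.9 in the Control libraries. CSF1Ri had the highest mean, 37.6 ± 6.07 CPM, beside 26.7 ± 9.25 CPM in Control (SD, n = 3 each), and the groups overlapped. Nusap1, which bundles spindle microtubules, had 28.2, 4.41 and 16.1 CPM in the combination libraries, 0.353, 13.8 and 16 in the CD40 agonist libraries, 15.5, 4.98 and 4.17 in the CSF1Ri libraries and 3.59, 0.886 and 11 in the Control libraries. Levels of Nusap1 scattered widely within every group. Neither gene passed a test, with log2 fold changes of -0.12 ± 0.31 and 0.98 ± 1.17 in the combination against CSF1Ri (edgeR, adjusted p = 0.882 and 0.709).

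All 3 genes of mitotic exit had every combination library above every CSF1Ri library, as did 10.8% of all genes tested. Cdca3, which triggers destruction of an inhibitor of mitotic entry, had 23.4, 9.01 and 8.35 CPM in the combination libraries, 4.88, 6.25 and 7.03 in the CD40 agonist libraries, 0.102, 3.49 and 2.30 in the CSF1Ri libraries and 2.04, 4.34 and 1.14 in the Control libraries. Each combination library lay above each CD40 agonist library, and each of these above all CSF1Ri and Control libraries. Ube2c, the ubiquitin carrier of the anaphase-promoting complex, had 15.8, 5.39 and 7.28 CPM in the combination libraries, 4.50, 5.54 and 7.67 in the CD40 agonist libraries, 3.53, 3.93 and 1.60 in the CSF1Ri libraries and 0.608, 3.61 and 2.81 in the Control libraries. Combination and CD40 agonist libraries overlapped each other and lay above the rest. Log2 fold changes were 2.79 ± 0.95 and 1.65 ± 0.68 against CSF1Ri (edgeR, adjusted p = 0.157 and 0.232) and 2.44 ± 0.94 and 2.02 ± 0.69 against Control (adjusted p = 0.26 and 0.209).

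Of the 4 chromatin and general proliferation genes, edgeR called 3 in the combination against CSF1Ri, where it called 1.24% of all genes tested higher. Mki67, which encodes the Ki-67 antigen of cycling cells (ENSMUSG00000031004, chr7:135689784-135716361), had 66.3, 53.2 and 53.2 CPM in the combination libraries, 41.4, 43.5 and 55.1 in the CD40 agonist libraries, 32.7, 21.2 and 19 in the CSF1Ri libraries and 28.2, 31.8 and 20.1 in the Control libraries. The 6 libraries with the antibody all lay above the 6 without it. Mki67 rose in the combination relative to CSF1Ri (1.24 ± 0.25, edgeR, adjusted p = 0.0365), and against Control it was 1.11 ± 0.25 (adjusted p = 0.0734). Top2a, the topoisomerase that untangles sister chromatids (ENSMUSG00000020914, chr11:98992943-99024189), had 74.5, 30.4 and 53.5 CPM in the combination libraries, 30.6, 22.2 and 66.4 in the CD40 agonist libraries, 7.43, 2.96 and 8.72 in the CSF1Ri libraries and 13, 27.6 and 18.1 in the Control libraries. Its CSF1Ri libraries lay below every other library, and the combination libraries above every Control library. Top2a rose by 3.05 ± 0.55 on the log2 scale relative to CSF1Ri (edgeR, adjusted p = 0.0256).

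Stmn1 (ENSMUSG00000028832, chr4:134468320-134473843) had 101, 28.3 and 75.3 CPM in the combination libraries, 35.7, 49.6 and 54.4 in the CD40 agonist libraries, 17.8, 8.99 and 9.53 in the CSF1Ri libraries and 19.7, 19.6 and 24.8 in the Control libraries. Here too the 6 libraries with the antibody lay above the 6 without it, and CSF1Ri libraries below Control. Stmn1 rose by 2.49 ± 0.43 on the log2 scale in the combination relative to CSF1Ri (edgeR, adjusted p = 0.0225). Hmgb2 had 288, 234 and 188 CPM in the combination libraries, 248, 186 and 167 in the CD40 agonist libraries, 188, 185 and 159 in the CSF1Ri libraries and 142, 184 and 144 in the Control libraries. It differed little, with the combination above every Control library and level with the highest CSF1Ri library at its lowest (0.42 ± 0.19 against CSF1Ri, edgeR, adjusted p = 0.283). The 22 genes outside the rule for naming were not called by edgeR in any comparison, and their mean CPM in the combination ran from 1.71 for Ccne1 to 45.8 for Mcm3.

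**Figure D2:**
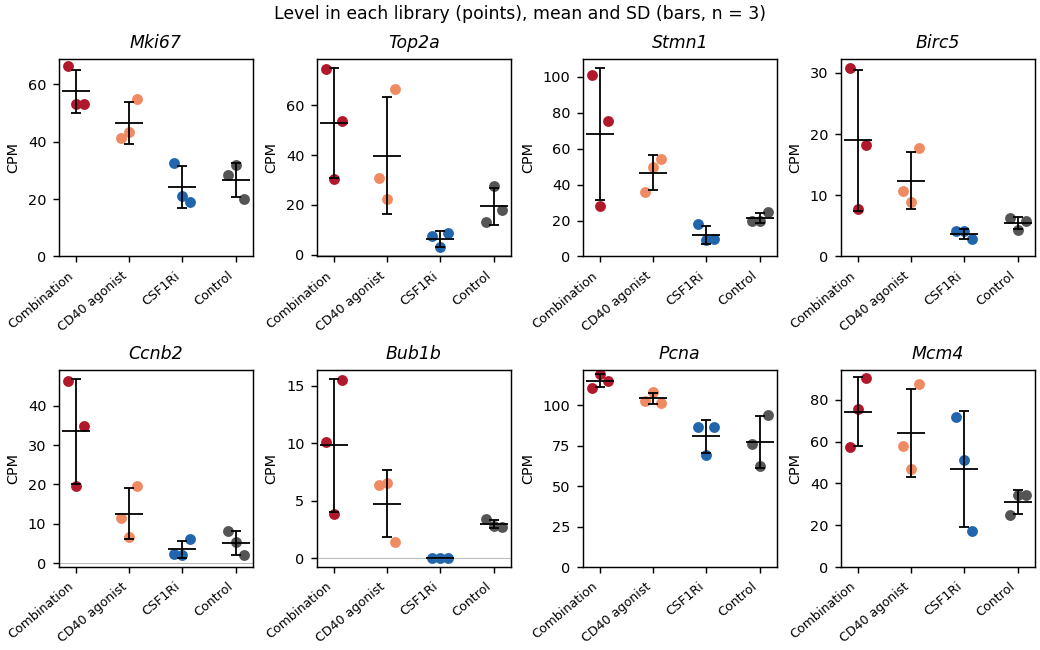
CPM of Mki67, Top2a, Stmn1, Birc5, Ccnb2, Bub1b, Pcna and Mcm4 on linear axes, 1 point per library, with the group mean as a line and the SD as bars (n = 3). The combination points of Mki67 lie between 53.2 and 66.3 CPM and the CSF1Ri points between 19.0 and 32.7, and Bub1b is at 0 in all 3 CSF1Ri libraries.

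Taking the comparisons in turn, the addition of the CD40 agonist to the inhibitor showed the clearest difference. Mki67, Top2a, Stmn1, Birc5, Ccnb2 and Bub1b, all mitosis genes, rose in the combination relative to CSF1Ri, which is 6 of 43 genes called higher where 1.24% of all genes tested were called higher, and none fell, where 0.699% of all genes tested did. edgeR called no S phase gene, with 4 of 16 at an unadjusted p below 0.05, while 21 of the 43 were higher at that p (10.6% of all genes tested). The median log2 fold change was 2.34 over the 27 mitosis genes and 0.68 over the 16 S phase genes, beside 0.02 over all genes tested, and 41 of 43 genes were positive. With Bub1 and Bub1b at their bounds the mitosis median remained 2.34. In 22 genes, 17 mitosis and 5 S phase, every combination library lay above every CSF1Ri library (10.8% of all genes tested). DESeq2 called 18 genes, 15 mitosis and 3 S phase (Mcm5, Mcm6 and Pcna), where it called 5.73% of all genes tested higher. Without both libraries that stood apart edgeR called 7, and without combination replicate 2 alone 8. The count fell to 1, Bub1b, without combination replicate 1 or replicate 3, to 2 without CSF1Ri replicate 1 or replicate 2, and to 3 without Control replicate 1 or replicate 2. Calls over all genes fell too, from 199 higher to 67 and 106 without combination replicates 1 and 3. They were 29 and 13 without CSF1Ri replicates 1 and 2, and 92 and 105 without Control replicates 1 and 2. Without combination replicate 2 they were 256, and without both libraries that stood apart 361.

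The combination against Control asked what both agents did together. All 43 genes had a positive log2 fold change, with medians of 1.69 over the mitosis genes and 0.67 over the S phase genes, beside 0.00 over all genes tested. None passed the edgeR test, where 0.774% of all genes tested were called in either direction, and 16 genes were at an unadjusted p below 0.05 and higher (8.32% of all genes tested). DESeq2 called 8, Birc5, Ccnb2, Mcm2, Mki67, Pcna, Stmn1, Tpx2 and Ube2c, where it called 3.71% of all genes tested higher. The groups did not overlap in 21 genes, 15 mitosis and 6 S phase (10.8% of all genes tested). Mki67 came nearest in edgeR, at 57.6 ± 7.60 CPM in the combination and 26.7 ± 6.01 CPM in Control (SD, n = 3 each). Without combination replicate 2 edgeR called Birc5 and Stmn1, and without both libraries that stood apart also Ccnb2. Over all genes it called 73 and 138 higher in these settings, beside 74 with all libraries.

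The CD40 agonist alone gave smaller differences in the same direction. Fold changes against Control were positive for 40 of 43 genes, with medians of 0.96 over the mitosis genes and 0.51 over the S phase genes, beside 0.01 over all genes tested. Neither edgeR nor DESeq2 called any of the 43 (of all genes tested, edgeR called 0% and DESeq2 1.22%), and 7 were at an unadjusted p below 0.05 in edgeR and higher (4.39% of all genes tested), namely Mki67, Stmn1, Pcna, Tpx2, Birc5, Mcm4 and Kif11. The groups did not overlap in 15 genes, 9 mitosis and 6 S phase (8.34% of all genes tested). Mki67 averaged 46.7 ± 7.33 CPM with the CD40 agonist and 26.7 ± 6.01 CPM in Control (log2 fold change 0.81 ± 0.25, edgeR, adjusted p = 0.524). This comparison and the preceding one share the Control libraries.

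With CSF1Ri alone the fold changes of the S phase genes centred near 0, and part of the mitosis genes had lower values. The median log2 fold change against Control was -0.51 over the mitosis genes and -0.05 over the S phase genes, beside -0.01 over all genes tested, and 17 of 43 genes were positive. edgeR called none of the 43 and 0.0125% of all genes tested, while DESeq2 called Bub1b and Cenpe lower, with 1.3% of all genes tested. At an unadjusted p below 0.05 Bub1b, Cenpe, Top2a and Bub1 were lower (4.78% of all genes tested were lower at that p). CSF1Ri libraries lay below every Control library in 8 genes, all of mitosis (Aurka, Birc5, Cdca8, Bub1b, Cenpe, Cenpf, Top2a and Stmn1), against 8.55% of all genes tested. They lay above every Control library in Mcm2 alone, against 7.23% of all genes tested. The 5 spindle genes all had positive fold changes, from 0.19 to 1.93. Leaving out CSF1Ri replicate 3, combination replicate 2 or the pair of them made Bub1b a called gene, lower with CSF1Ri. Over all genes 43, 7 and 152 were called lower in these settings.

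None of the 43 genes passed the test when the inhibitor was added to the antibody. In the combination against the CD40 agonist 39 of 43 genes were positive, with medians of 0.69 over the mitosis genes and 0.22 over the S phase genes, beside 0.00 over all genes tested. edgeR called 0% of all genes tested, DESeq2 called none of the 43 and 1.68% of all genes tested, and only Ccnb2 was at an unadjusted p below 0.05 in edgeR (1.42 ± 0.61, adjusted p = 0.521), where 4.68% of all genes tested were higher at that p. Groups did not overlap in Mcm7, Pcna, Ccnb2, Foxm1, Tpx2 and Cdca3 (6 of 43, against 6.6% of all genes tested).

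Whether both agents together exceeded the sum of their single log2 fold changes was read from the interaction. The interaction is the log2 fold change by the antibody with the inhibitor present minus that by the antibody alone. Its median was 1.35 over the mitosis genes and 0.28 over the S phase genes, beside 0.02 over all genes tested. edgeR called none of the 43 and 0% of all genes tested, with 6 genes at an unadjusted p below 0.05, all mitosis genes (Bub1b, Cenpe, Top2a, Bub1, Stmn1 and Ccnb2), where 4.64% of all genes tested were higher at that p. DESeq2 called Bub1b higher, with 0.674% of all genes tested. With the melanocyte covariate described below the mitosis median was 0.64, and without single libraries it was 0.74 (without combination replicate 1) to 1.56, with 0.89 without Control replicate 2. For Top2a the interaction was 2.02 ± 0.73 (edgeR, adjusted p = 0.496). Across the 4 groups together edgeR called Bub1b (adjusted p = 0.0273) and Stmn1 (adjusted p = 0.0453) as different, 2 of 43 against 1.2% of all genes tested, and Mki67 came next (adjusted p = 0.0614). At an unadjusted p below 0.05 stood 15 of 43 (16.3% of all genes tested), and DESeq2 called 13 (10.6% of all genes tested). Only Bub1b was called without combination replicate 1 or 3 or without CD40 agonist replicate 1 or 3, and no gene of the 43 without any 1 of the Control libraries, CD40 agonist replicate 2 or CSF1Ri replicate 1 or 2. Calls over all genes were 193 with all libraries, 47 to 107 in the former settings and 13 to 30 in the latter. Without combination replicate 2 the count was 4, without CSF1Ri replicate 3 it was 3, and without both it was 7, where calls over all genes were 291, 290 and 646. Both edgeR genes were among the 13 of DESeq2.

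**Figure D3:**
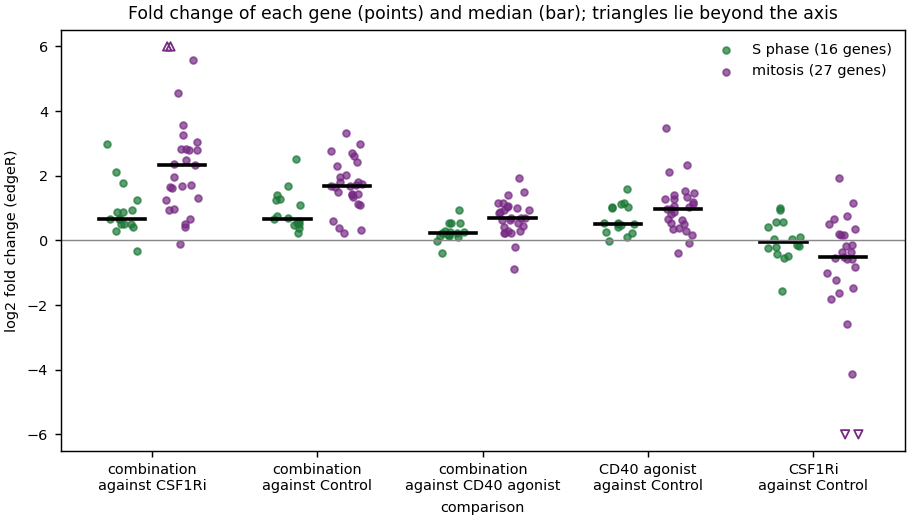
Each point is the edgeR log2 fold change of 1 gene in 1 comparison, green for 16 S phase and purple for 27 mitosis genes, with the median as a bar. Open triangles at the edge of the axis are Bub1 and Bub1b, which are at 0 in all CSF1Ri libraries and lie beyond it. The mitosis median is 2.34 in the combination against CSF1Ri, where the S phase median is 0.68.

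S phase and mitotic genes were set side by side in each library by their mean log2 CPM. The mitosis mean was 4.52, 2.63 and 3.83 in the combination libraries, 2.41, 2.76 and 3.46 in the CD40 agonist libraries, 1.01, 1.40 and 0.93 in the CSF1Ri libraries and 2.15, 2.14 and 1.72 in the Control libraries. These did not overlap between CSF1Ri and any other group, nor between Control and the antibody groups. On the summed CPM of the same genes the antibody groups again lay above Control. CSF1Ri (353, 340 and 300 CPM) and Control (342, 378 and 316 CPM) overlapped on that sum. Genes at 0 weigh on the mean log2 CPM, and 4, 3 and 3 mitosis genes were at 0 in the CSF1Ri libraries. The S phase mean was 4.93, 3.90 and 4.69 in the combination libraries, 3.73, 4.48 and 4.53 in the CD40 agonist libraries, 3.84, 2.95 and 3.47 in the CSF1Ri libraries and 3.61, 3.35 and 3.81 in the Control libraries. Here CSF1Ri and Control overlapped, CD40 agonist replicate 1 lay within the Control range, and combination replicate 2 only just exceeded it. The S phase mean minus the mitosis mean was 0.85 ± 0.43 in the combination, 1.37 ± 0.33 with the CD40 agonist, 2.31 ± 0.67 with CSF1Ri and 1.58 ± 0.45 in Control (log2, SD, n = 3 each). On the TPM scale with 0.1 added the same difference was 0.77 ± 0.32 in the combination, 1.35 ± 0.26 with the CD40 agonist, 2.00 ± 0.56 with CSF1Ri and 1.40 ± 0.47 in Control. Genes at 0 enter the difference on both scales, mostly through the mitosis mean.

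Within groups the libraries were ranked for each of the 43 genes, and the matching shares of all genes tested are not given here. Combination replicate 1 was the highest of its group for 31 of 43 genes and replicate 2 the lowest for 33. With the CD40 agonist, replicate 3 was the highest for 24 genes and replicate 1 the lowest for 22, ties left out. In CSF1Ri and Control no library was the highest for more than 15 genes.

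Tyr and Dct were higher in most of the antibody libraries than in the others, while Pmel exceeded the Control libraries in combination replicate 1 alone. Tyr, the pigment enzyme tyrosinase, had 4.55, 0.305 and 8.50 CPM in the combination libraries, 18.4, 0.432 and 5 in the CD40 agonist libraries, 0.577, 0.487 and 0.845 in the CSF1Ri libraries and 0.334, 0.791 and 0.502 in the Control libraries. Dct, a second pigment enzyme, had 27.5, 4.78 and 23.1 CPM in the combination libraries, 36.6, 9.98 and 13.3 in the CD40 agonist libraries, 4.58, 3.71 and 4.05 in the CSF1Ri libraries and 3.83, 4.56 and 6.33 in the Control libraries. Pmel, the melanosome fibre gene, had 25, 0.237 and 1.28 CPM in the combination libraries, 0.735, 3.30 and 4.53 in the CD40 agonist libraries, 0, 0.749 and 0.496 in the CSF1Ri libraries and 4.50, 6.33 and 2.18 in the Control libraries. Combination replicates 1 and 3 and CD40 agonist replicates 1 and 3 were high in Dct and in Tyr, while combination replicate 2 was at the level of CSF1Ri and Control. The list of 12 melanocyte and melanoma markers summed to 13.3 to 146 CPM in the combination, 25.5 to 58.9 CPM with the CD40 agonist, 6.18 to 9.86 CPM with CSF1Ri and 10.6 to 15 CPM in Control. edgeR called none of the 9 that could be tested in any pairwise comparison, and against CSF1Ri all 9 had positive fold changes in the combination. Of these 12, Oca2 was at 0 in the combination, Slc45a2 and Gpr143 with the CD40 agonist, Tyrp1, Mlana, Sox10, Slc45a2, Gpr143 and Oca2 with CSF1Ri, and Sox10, Slc45a2 and Gpr143 in Control.

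The mean log2 CPM of Tyr, Dct and Pmel was 3.88, -0.30 and 2.68 in the combination libraries, 3.03, 1.35 and 2.76 in the CD40 agonist libraries, -0.81, 0.25 and 0.35 in the CSF1Ri libraries and 0.94, 1.55 and 1.0 in the Control libraries. Over all 12 markers of the list the mean was 2.10, -1.64 and 0.47 in the combination libraries, -0.996, -0.23 and 0.93 in the CD40 agonist libraries, -2.60, -2.14 and -2.36 in the CSF1Ri libraries and -1.51, -1.43 and -1.83 in the Control libraries. CD40 agonist replicate 1, the lowest of its group in both the S phase and the mitosis mean, was the highest of its group over the 3 markers and the lowest over the 12. On the 12 markers, libraries within the combination group and within the CD40 agonist group stood in the same order as on the mitosis mean. Across both antibody groups the order of libraries differed between the markers and the mitosis mean, as it did within CSF1Ri and within Control. In a comparison chosen after the values were seen, combination replicate 2, with little melanocyte RNA, exceeded all 3 CSF1Ri libraries in 24 of 43 genes, 18 mitosis and 6 S phase (28.8% of all genes tested did so). It exceeded all 3 Control libraries in 23 genes (30.4% of all genes tested) and all 3 CD40 agonist libraries in 7 (27.4%). With the mean of Tyr, Dct and Pmel as a covariate, edgeR called 1 of 43 genes, Bub1b, in the combination against CSF1Ri, and the mitosis median was 1.31 in place of 2.34. Over all genes it called 211 of 16027 higher, beside 199 without the covariate. The covariate itself averaged 2.09 ± 2.15 in the combination and -0.07 ± 0.64 with CSF1Ri (SD, n = 3 each), so it can also take up a difference between groups. The part of melanocyte RNA in the cell cycle genes was not tested.

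**Figure D4:**
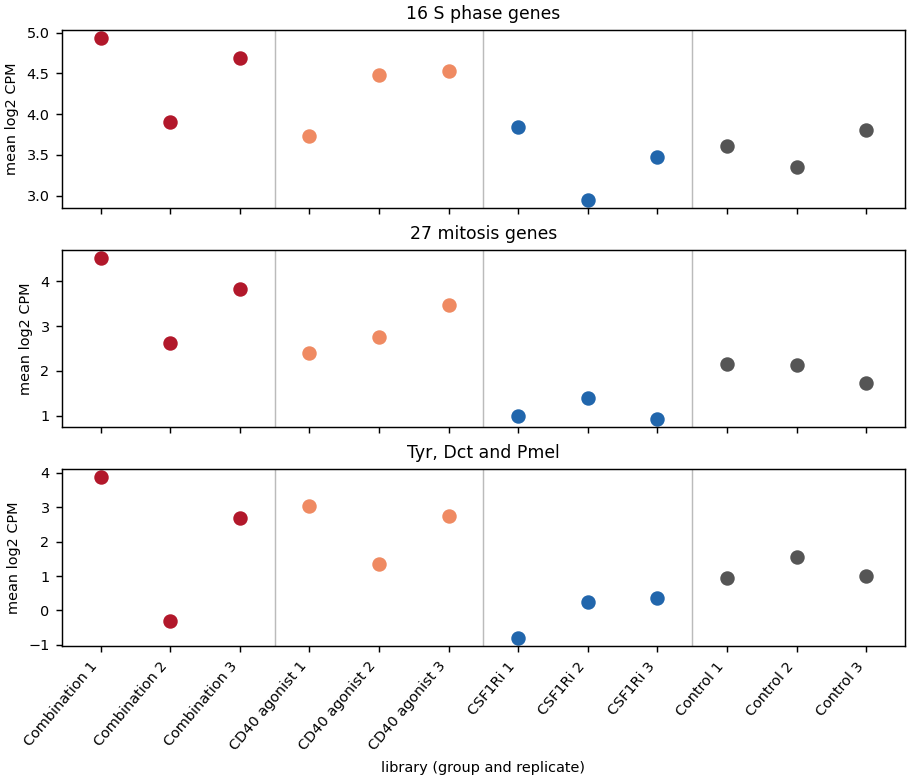
Mean log2 CPM of the 16 S phase genes, the 27 mitosis genes and of Tyr, Dct and Pmel in each of the 12 libraries, 1 point per library with a scale of its own in each panel. Combination replicate 2 is at -0.30 in the melanocyte panel, among the CSF1Ri libraries, and at 2.63 in the mitosis panel, above all Control libraries.

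Markers of other cells were measured beside the cell cycle genes. NK cell markers summed to 624 to 1115 CPM in the combination, 595 to 1240 CPM with the CD40 agonist, 311 to 459 CPM with CSF1Ri and 422 to 659 CPM in Control, with all 6 detected in each group. In the combination against CSF1Ri edgeR called 1 of these 6, with 5 of 6 positive and a median log2 fold change of 1.15. T cell markers (9 of 9 detected in each group) summed to 55.3 to 80.9 CPM in the combination, 95.6 to 150 CPM with the CD40 agonist, 45.2 to 58.6 CPM with CSF1Ri and 94.9 to 124 CPM in Control. Granulocyte and granulocyte precursor markers summed to 506 to 1336 CPM in the combination, 157 to 242 CPM with the CD40 agonist, 425 to 2018 CPM with CSF1Ri and 315 to 833 CPM in Control, with Ly6g at 0 with the CD40 agonist and the precursor gene Elane at 0 with CSF1Ri and in Control. S100a8, S100a9 and Retnlg made up most of that sum with CSF1Ri, while Camp and Ltf, granule genes of immature neutrophils, had their highest means in the combination. Camp had 63, 20.6 and 184 CPM in the combination libraries, 23.6, 4.56 and 2.53 in the CD40 agonist libraries, 1.19, 0 and 0 in the CSF1Ri libraries and 0.334, 3.83 and 0 in the Control libraries. Ltf had 111, 60.7 and 346 CPM in the combination libraries, 39.5, 11 and 8.60 in the CD40 agonist libraries, 2.68, 0 and 0.554 in the CSF1Ri libraries and 0, 11.6 and 0.234 in the Control libraries. Every combination library of both exceeded every CSF1Ri and Control library, and edgeR called 1 of the 9 markers of this list in the combination against CSF1Ri, with 6 of 9 positive and a median log2 fold change of 2.74. Mast cell, basophil and eosinophil markers summed to 385 to 637 CPM in the combination, 157 to 365 CPM with the CD40 agonist, 443 to 669 CPM with CSF1Ri and 142 to 215 CPM in Control. Of the 7 of that list that could be tested, edgeR called 3 in the combination against Control and 2 against CSF1Ri, with Prg2 and Epx at 0 in both antibody groups and Epx at 0 in Control. Fold changes were positive for 4 of the 7 against Control (median log2 1.41) and for 3 of the 7 against CSF1Ri (median -0.20). Keratinocyte markers summed to 1.56 to 66.3 CPM in the combination, 3.69 to 22 CPM with the CD40 agonist, 4.49 to 4.72 CPM with CSF1Ri and 9.12 to 53.7 CPM in Control, with Trp63 at 0 with CSF1Ri. Dendritic cell markers summed to 96.7 to 1001 CPM in the combination, 532 to 642 CPM with the CD40 agonist, 244 to 598 CPM with CSF1Ri and 496 to 712 CPM in Control. The part of NK, T cell, dendritic, granulocyte, mast cell, basophil, eosinophil and keratinocyte RNA in the differences of the cell cycle genes was not tested.

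A wider set of 97 cell cycle genes was measured in the same fit. Of 30 other replication genes, Rpa1, Fen1 and Lig1 rose in the combination relative to CSF1Ri, and of 36 other mitosis genes Anln rose, where 1.24% of all genes tested were called higher. Rpa1, a subunit of the protein that coats single-stranded DNA, had 87.4, 76.8 and 109 CPM in the combination libraries, 86.8, 103 and 101 in the CD40 agonist libraries, 43, 52.1 and 45.9 in the CSF1Ri libraries and 61.7, 64.6 and 64.2 in the Control libraries. The CSF1Ri libraries lay below all others, and the antibody libraries above all Control libraries (0.95 ± 0.15, edgeR, adjusted p = 0.018, with 0.0273 for any difference among the 4 groups). Fen1, the flap nuclease of the lagging strand, had 58, 72.6 and 59 CPM in the combination libraries, 36.5, 63.1 and 51.8 in the CD40 agonist libraries, 19.5, 34 and 29.1 in the CSF1Ri libraries and 32.9, 22.8 and 25.7 in the Control libraries. Combination replicate 2 was the highest library for Fen1 (1.20 ± 0.26, edgeR, adjusted p = 0.0454). Lig1, the DNA ligase of replication, averaged 14.6 ± 5.68 CPM in the combination and 2.48 ± 1.54 CPM with CSF1Ri (2.56 ± 0.55, edgeR, adjusted p = 0.0439), with 8.04 ± 2.46 CPM in Control (SD, n = 3 each). Anln, the anillin gene of the cleavage furrow, averaged 12.9 ± 8.06 CPM in the combination and 0.915 ± 0.351 CPM with CSF1Ri (3.82 ± 0.84, edgeR, adjusted p = 0.0472).

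edgeR called none of the 97 in the other pairwise comparisons or the interaction. The other replication genes had a median log2 fold change of 0.82 in the combination against CSF1Ri with 29 of 30 positive, and the other mitosis genes 1.56 with 32 of 36 positive. Against Control the medians were 0.54 and 0.96. Over cyclin D, CDK4/6 and CDC25 genes the median was 0.49 against CSF1Ri, with a range of -1.0 to 4.63, and 0.15 against Control, with Ccnd1 at 23.2 ± 10.2 CPM in the combination, 11.3 ± 2.44 CPM with CSF1Ri and 14.4 ± 2.12 CPM in Control (SD, n = 3 each). Cell cycle brakes, of which 12 of 13 could be tested and Cdkn2a could not, had medians of 0.21 and 0.24, and the anti-proliferative genes Btg1 and Btg2 had 0.35 ± 0.14 and 0.52 ± 0.21 against Control. Cdk4, the partner kinase of the D-type cyclins, had 0.32 ± 0.19 against Control. Other cell cycle transcription factors had medians of 0.32 and 0.26, with 1.01 ± 0.50 for the repressor E2f8 and 2.53 ± 1.22 for Mybl2, which encodes B-MYB, against Control (edgeR, adjusted p = 0.373 and 0.368). The 4 genes that rose do not include a brake, a D-type cyclin or a transcription factor. With 1.24% of all genes tested called higher, lists this short need not hold a called gene. Ccnd1 had a log2 fold change of 1.04 ± 0.34 in the combination against CSF1Ri (edgeR, adjusted p = 0.138).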

How the data were processed

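RNA of tumor-associated macrophages was sequenced in 12 unstranded libraries (paired 75-bp reads, 50 ng RNA, 6 libraries per lane, per the labels' protocols), and lane membership is not given. The labels' protocols name STAR, GRCm38 (mm10), HTSeq and DESeq2. Per the file headers, however, the deposited files hold an estimated count and a TPM value for each transcript, while nothing in the sources used here gives the quantifier or the annotation behind them. The full genotype is not reported here.

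Estimated counts as deposited were summed per gene through GENCODE M21 (98.9% of 111462 transcripts matched, the rest holding 0.378% to 0.436% of counts) and rounded. Coordinates are GRCm38, 1-based. All 12 libraries entered 1 edgeR 4.0.16 fit (R 4.3.3) with a term per group, TMM scaling, filterByExpr and robust quasi-likelihood F-tests, with 8 residual degrees of freedom and Benjamini-Hochberg adjustment over 16027 genes at 0.05. The SE is the log2 fold change divided by the root of F. CPM values carry the TMM scaling, and log2 CPM uses a prior count of 2. TPM values deposited by the authors were used for levels between genes. DESeq2 1.42.0, other scaling, no filter, a replicate block, a melanocyte covariate and left-out libraries were alternatives. The fit was tested on simulated data. No 2 libraries held identical values, and log2 CPM correlated at 0.874 to 0.934.

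The genes, their roles and the other lists were chosen with earlier results of these data known. Genes named with values are the 2 of highest mean CPM per role, those called, and the 3 of smallest p for any difference. Of the other cell cycle genes, those called are named, and in lists with none called the 2 per list of smallest p against Control.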

Additional observations from a re-analysis of the deposited data

How the results depend on the processing

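Members called by edgeR in the combination against CSF1Ri numbered 6, and 18 with DESeq2, 3 with the replicate block and 1 with the melanocyte covariate. Over all genes the calls higher numbered 199, and 919 with DESeq2, 85 with the replicate block and 211 with the covariate. Leaving out single libraries gave 1 to 8 members, and 13 to 256 calls higher over all genes. Bub1b was called in 19 of 19 settings, Top2a in 14, Stmn1 in 13, Ccnb2 in 10, Mki67 in 8 and Birc5 in 6. The combination against Control gave 8 with DESeq2, 3 without both libraries that stood apart and 0 to 2 without single libraries. Over all genes the calls higher were 595, 138 and 0 to 103 in these settings. CSF1Ri against Control gave 2 with DESeq2, 1 without both libraries and 0 to 1 without single libraries, where calls lower over all genes were 209, 152 and 0 to 43. The interaction gave 1 with DESeq2 and 1 without both libraries, where calls in either direction over all genes were 175 and 66. Any difference gave 13 with DESeq2, 0 with the replicate block, 1 with the covariate, 7 without both libraries and 0 to 4 without single libraries. Over all genes these settings gave 1692, 49, 188, 646 and 13 to 291 calls. The mitosis median of the combination against CSF1Ri was 1.31 with the covariate and 1.57 to 2.74 without single libraries, and that of the interaction 0.64 and 0.74 to 1.56. The cause of these shifts was not tested.

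Directions turned without single libraries for Cdk2 against CSF1Ri (log2 fold changes of -0.0331 to 0.948, negative without combination replicate 1), Cdk2 against Control (-0.21 to 0.43, likewise) and Kif23 against CSF1Ri (-0.47 to 0.12, positive without combination replicate 2). With the covariate they turned for Uhrf1 (-0.0749) and Cenpa (-0.13) against CSF1Ri and for Cenpa against Control (-0.00734). None of these had passed the test. Over all genes, edgeR called 311 in the combination against CSF1Ri and 124 against Control, and DESeq2 1481 and 944. The replicate block, which gave 121 and 59, rests on shared numbers only. Deviations of same-numbered libraries correlated at -0.0614 to 0.0603 (median 0.0113, 18 pairs) and those of different numbers at -0.107 to 0.0735 (median -0.00223, 36 pairs), and 6 of 12 libraries correlated best with their own number. With 3 libraries per group and low counts for many of these genes, smaller differences may have gone undetected.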
